A study of Mus musculus with 10 samples.

Results

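The genes described here are the integrin subunits that bind laminin, collagen or the ligands of the alpha 4 and alpha 9 subfamily: Itga1, Itga2, Itga3, Itga4, Itga6, Itga7, Itga9, Itga10, Itga11 and Itgb4. They were chosen by name, from the probe sets that the array's annotation pairs with exactly 1 of these symbols, and where several probe sets qualify the brightest on average represents the gene. All 10 were measured, each by 1 probe set, out of 19938 named genes on the array.

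RNA came from whole oviducts of mice 21 to 23 days old, before puberty, in which a lacZ knock-in disrupts Pgr, the gene of the progesterone receptor. PRKO animals carry the disrupted allele on both chromosomes and PR+/- animals, the controls, on 1, so every animal of the study carried it at least once and no wild-type array was used. Every animal received 5 IU of equine chorionic gonadotropin and, 44 to 47 h later, 5 IU of human chorionic gonadotropin (hCG), and oviducts were taken 8 h after hCG. Each array holds RNA pooled from 3 animals, giving 5 arrays and 15 animals per genotype. The receptor is missing from every cell type throughout life and no array was made before hCG, so differences that preceded the hormone cannot be told from later ones. Values are log2 signals, a scale inferred from their range, and p-values measure the spread between pools.

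Integrins are pairs of an alpha and a beta chain that span the cell membrane, grip the extracellular matrix outside and connect through adaptor proteins to actin or keratin filaments inside. The alpha 3, alpha 6 and alpha 7 chains recognise laminin, the main cell-binding protein of basement membranes, while alpha 1, alpha 2, alpha 10 and alpha 11 carry an extra inserted domain that grips collagen. Alpha 4 and alpha 9 form a small subfamily of their own that binds VCAM1, tenascin C and an alternatively spliced form of fibronectin. The oviduct is a tube of ciliated and secretory epithelium on a basement membrane, wrapped in stroma and in smooth muscle, each of whose fibres also has a basement membrane of its own, so members of every class have ligand close by.

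In PRKO oviducts the collagen receptor Itga1, the muscle laminin receptor Itga7 and the alpha 9 gene Itga9 fell, Itga4 rose, and the other 6 members did not pass the test (limma, adjusted p under 0.05 after Benjamini-Hochberg over all 19938 genes). The same fit called 4.96% of all genes, with 3.87% of all genes falling and 1.09% rising. Of the members, 3 of 10 fell and 1 of 10 rose, and signals of PR+/- and PRKO arrays did not overlap for 5 of 10, against 7.2% of all genes. The median log2 difference of the 10 members was 0.12, beside 0.03 over all genes. A log2 difference above 0 was seen in 7 of 10 members and in 56.1% of all genes, while the 3 that fell moved furthest. Under quantile or cyclic loess normalization 2 members rose, Itga6 and Itgb4, and 3 fell. Itga4 lost its call under these normalizations (limma, adjusted p = 0.0518 and 0.0687). With every array centred on its median 0 rose and 3 fell. With the interquartile range of each array as a covariate, 1 rose, Itga6, and 0 fell.

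**Figure D1:**
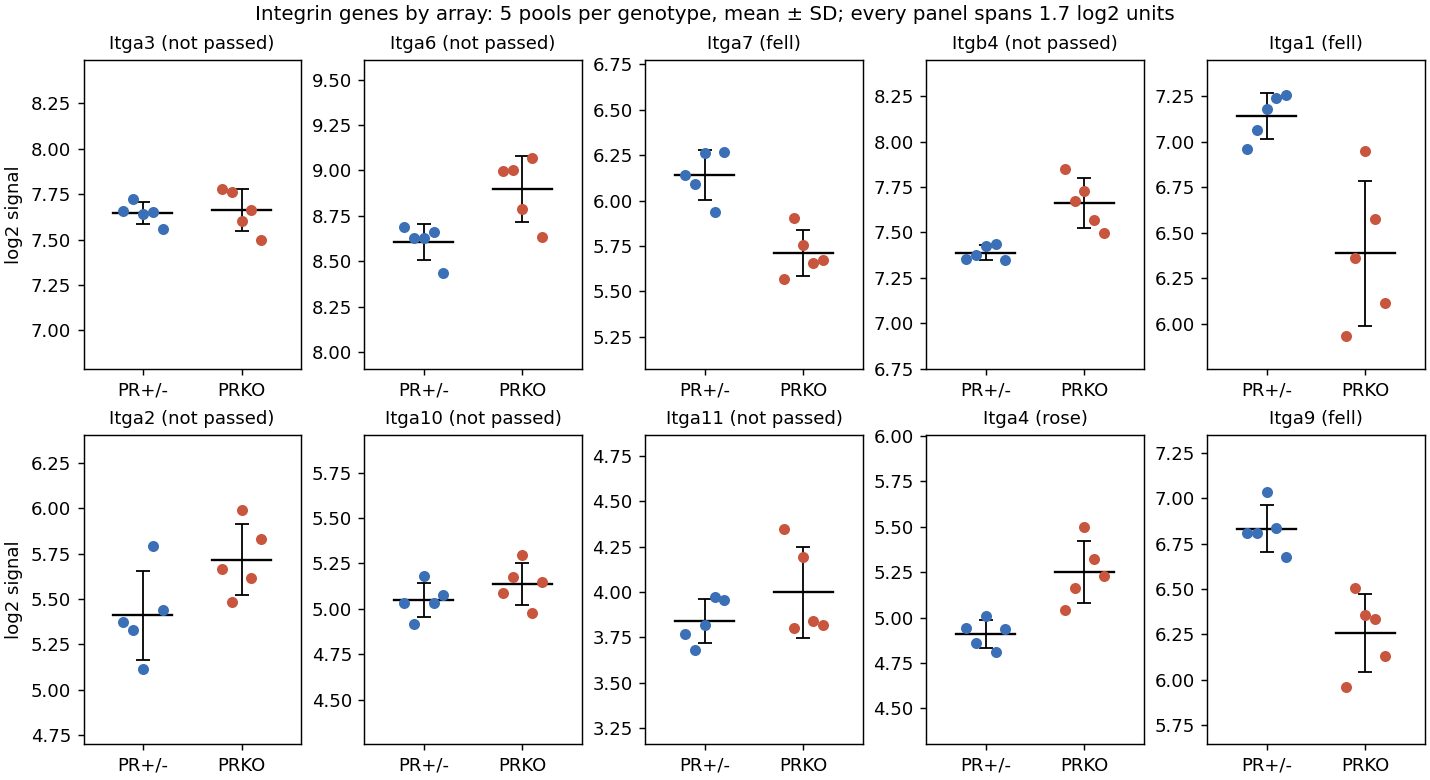
Log2 signal of each integrin gene (vertical axes) on the 5 PR+/- arrays (blue) and 5 PRKO arrays (red), with the mean and SD as bars and all panels of equal height. The genotypes separate for Itga1, Itga4, Itga7, Itga9 and Itgb4, and the PRKO points of Itga1 spread from 5.93 to 6.95.

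Some facts of the arrays bear on these values. Pgr itself fell by 1.06 ± 0.072 (SE) in PRKO (limma, adjusted p = 1.00e-06), its arrays did not overlap, and the labels were taken as they stand. Oviduct epithelium markers were well represented in every array, with a log2 summed signal of 11.8 to 12.0 in PR+/- and 11.7 to 12.1 in PRKO, and none of the 7 measured was called. All 7 smooth muscle markers (Acta2, Myh11, Cnn1, Des, Tagln, Actg2 and Myocd) fell, and their log2 summed signal was 13.2 to 13.3 in PR+/- and 12.3 to 12.7 in PRKO. Transcripts of ovarian cells were high in PR+/- replicate 4 (8.69) and PRKO replicate 3 (8.73), against 6.72 to 7.19 in the other 8 arrays, so results are also given without those 2 arrays where that matters. The interquartile range of signal was 3.37 to 3.48 in PR+/- arrays and 3.13 to 3.42 in PRKO arrays. Members varied more between PRKO pools than between PR+/- pools in 8 of 10 cases, as did 74.7% of all genes.

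Among the laminin receptors only Itga7 passed the test, and it fell. Itga7 encodes the alpha chain of the main laminin receptor of muscle fibres. Its log2 signals were 6.14, 6.09, 6.26, 5.94 and 6.27 in PR+/- replicates 1 to 5 and 5.57, 5.91, 5.75, 5.65 and 5.67 in PRKO replicates 1 to 5. Every PRKO array lay under every PR+/- array, although PRKO replicate 2 came within a few hundredths of PR+/- replicate 4. The mean went from 6.14 (SD 0.137, n = 5) to 5.71 (SD 0.127, n = 5), which is 1.35-fold lower, a log2 difference of -0.43 ± 0.087 (limma, adjusted p = 0.0107). The call was lost with the interquartile range as a covariate (-0.38, adjusted p = 0.173) and without PRKO replicates 1 and 5, which lie farthest from their group (-0.37, adjusted p = 0.0585). Smooth muscle markers fell in the same arrays; their part in the Itga7 result was not tested, and in whole tissue fewer muscle cells and less RNA per cell cannot be told apart.

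Itga6 encodes a laminin-binding chain that pairs with beta 1 or with beta 4, and with the latter anchors epithelial cells to the basement membrane through hemidesmosomes. It read 8.69, 8.63, 8.63, 8.66 and 8.44 in PR+/- replicates 1 to 5 and 9.00, 9.00, 8.79, 9.07 and 8.63 in PRKO replicates 1 to 5. Only PRKO replicate 5, the array with the narrowest interquartile range, fell among the PR+/- values. The log2 difference was 0.29 ± 0.092 with a 95% interval of 0.09 to 0.49, which did not pass (limma, adjusted p = 0.0907). Without PRKO replicate 5 the difference was 0.36 (limma, adjusted p = 0.0281), and with the interquartile range as a covariate it was 0.50 (limma, adjusted p = 0.0167). Itga6 moved with that range inside each genotype, with a correlation of 0.87 over the 10 arrays after removal of genotype means, given as a description.

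Itgb4 encodes the beta 4 chain, whose only known partner is alpha 6. Its PR+/- signals were tight, at 7.35, 7.37, 7.42, 7.44 and 7.35 in replicates 1 to 5, and its PRKO signals were 7.85, 7.67, 7.73, 7.57 and 7.50. All 5 PRKO arrays lay above all 5 PR+/- arrays, yet the log2 difference of 0.28 ± 0.078 (95% interval 0.11 to 0.44) missed the threshold (limma, adjusted p = 0.0578). It passed under 7 of 23 alternatives, among them quantile normalization (0.32, limma adjusted p = 0.0289) and leaving out PRKO replicate 5 (0.32, limma adjusted p = 0.0295). Itga6 and Itgb4, the chains of 1 heterodimer, thus had nearly equal log2 differences, neither of them called. Their difference from each other was 0.01, with an interval of -0.18 to 0.24 that leaves room for a modest inequality (two-sided exact permutation test over 10 arrays, p = 0.897).

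Itga3, which encodes another laminin-binding chain of epithelia, was nearly level. PR+/- replicates 1 to 5 read 7.66, 7.73, 7.64, 7.65 and 7.56 and PRKO replicates 1 to 5 read 7.78, 7.76, 7.60, 7.66 and 7.50. The genotypes overlapped throughout, and the log2 difference of 0.01 ± 0.075 had a 95% interval of -0.15 to 0.18 (limma, adjusted p = 0.926).

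Of the collagen receptors, Itga1 fell and the 3 others did not pass. Itga1 encodes the alpha chain of a collagen receptor of smooth muscle, capillary endothelium and stromal cells that prefers the type IV collagen of basement membranes. PR+/- replicates 1 to 5 read 6.96, 7.06, 7.18, 7.24 and 7.26, and PRKO replicates 1 to 5 read 5.93, 6.36, 6.95, 6.57 and 6.11. The PRKO arrays were spread over a full log2 unit, and the highest, replicate 3, came just below the lowest PR+/- array without crossing it. Itga1 had a mean of 7.14 (SD 0.126, n = 5) in PR+/- and 6.39 (SD 0.397, n = 5) in PRKO, 1.69-fold lower, with a log2 difference of -0.76 ± 0.15 (limma, adjusted p = 0.0102). That was the largest genotype difference among the 10 members. Without PR+/- replicate 4 and PRKO replicate 3, the arrays with ovarian transcripts, it was -0.87 (limma, adjusted p = 0.00287). The call was lost without moderation of variances (adjusted p = 0.0771) and with the interquartile range as a covariate (-0.72, adjusted p = 0.154).

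Itga2, which encodes the collagen receptor chain of epithelia and platelets, went the other way in its mean but did not pass. It read 5.37, 5.33, 5.11, 5.79 and 5.44 in PR+/- replicates 1 to 5 and 5.66, 5.49, 5.99, 5.61 and 5.83 in PRKO replicates 1 to 5. PR+/- replicate 4, at 5.79, sat among the PRKO arrays. The log2 difference was 0.31 ± 0.12 with a 95% interval of 0.05 to 0.57 (limma, adjusted p = 0.168), and 0.11 with the interquartile range as a covariate.

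Itga10 encodes a collagen receptor chain best known from cartilage. Its signals were 5.03, 4.92, 5.18, 5.03 and 5.08 in PR+/- replicates 1 to 5 and 5.09, 5.18, 5.29, 4.98 and 5.14 in PRKO, with a log2 difference of 0.09 ± 0.079 (95% interval -0.08 to 0.26, limma adjusted p = 0.536). The genotypes overlapped. Itga11 encodes a collagen receptor chain of fibroblasts and was the only member among the dimmest 30% of probe sets, where an array understates change. It read 3.77, 3.68, 3.82, 3.97 and 3.96 in PR+/- replicates 1 to 5 and 4.34, 3.80, 4.19, 3.84 and 3.82 in PRKO, with a log2 difference of 0.16 ± 0.11 (95% interval -0.08 to 0.40, limma adjusted p = 0.435). PRKO replicates 1 and 3 stood above the PR+/- arrays and the other 3 among them. Without PRKO replicate 1 the Itga11 difference was 0.072, and under quantile normalization and cyclic loess 0.070 and 0.063. Without PRKO replicate 3 the Itga10 difference was 0.050.

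Itga1 and Itga2 are direct neighbours on chromosome 13 in the RefSeq annotation of assembly GRCm38.p6, and their RefSeq promoters are shown because the pair differed in response while lying side by side. Each sequence holds the 250 bases before the transcription start, on the minus strand, written 5′ to 3′. Capitals mark AGAACA, the hexamer bound by the progesterone, glucocorticoid and androgen receptors. Itga1 is at chr13:115101965-115102214 and Itga2 at chr13:114932101-114932350.
Itga1: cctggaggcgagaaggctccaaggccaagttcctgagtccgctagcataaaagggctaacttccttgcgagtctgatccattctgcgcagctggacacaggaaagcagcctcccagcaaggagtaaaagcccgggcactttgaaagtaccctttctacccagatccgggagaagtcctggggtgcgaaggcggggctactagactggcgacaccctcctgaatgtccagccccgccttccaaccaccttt
Itga2: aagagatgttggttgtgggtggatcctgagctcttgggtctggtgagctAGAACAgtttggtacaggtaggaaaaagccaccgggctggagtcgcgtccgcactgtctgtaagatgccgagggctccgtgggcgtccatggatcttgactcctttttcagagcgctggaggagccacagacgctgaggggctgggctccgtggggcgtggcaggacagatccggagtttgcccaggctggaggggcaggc
The Itga2 promoter holds 1 copy of the hexamer, 201 bases before the start, and the Itga1 promoter holds none. Searched on both strands, AGAACA was found in 16.1% of the 32851 promoters of the same length in the table, so a single match is common. RefSeq promoters were found for 7 members, 8 promoters in all, and Itga2's was the only one with the hexamer. None was found for Itga6, Itga7 or Itgb4, so the motif counts do not cover them. The Itga3 promoters and that of Itga9 precede starts that are not at the end of the annotated gene. The looser palindrome ACANNNTGT, which can overlap AGAACA, was in 0 of the 8 member promoters and 5.84% of all. The activator protein motif TGANTCA was in 0 of 8 and 6.75% of all, and the CArG box of serum response factor, a motif of smooth muscle promoters, in 0 of 8 and 1.47% of all. These counts concern only the letters of this window. Among neighbouring genes, Pelo, which overlaps Itga1, had a log2 difference of -0.10 (limma, adjusted p = 0.537). Isl1, a homeobox gene and the next gene on the other side of Itga1 from Itga2, rose by 0.36 on the log2 scale (limma, adjusted p = 0.0354).

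The alpha 4 and alpha 9 genes passed the test in opposite directions. Itga9 encodes a chain found on smooth muscle, epithelia and lymphatic endothelium, where it is needed for the valves. Its log2 signals were 6.81, 6.81, 7.03, 6.84 and 6.67 in PR+/- replicates 1 to 5 and 5.96, 6.51, 6.36, 6.33 and 6.13 in PRKO replicates 1 to 5. A gap separated the genotypes, the highest PRKO array being replicate 2 and the lowest PR+/- array replicate 5. Itga9 had a mean of 6.83 (SD 0.129, n = 5) in PR+/- and 6.26 (SD 0.214, n = 5) in PRKO, 1.49-fold lower, with a log2 difference of -0.57 ± 0.10 (limma, adjusted p = 0.00479). The call was lost under 1 of 23 alternatives, the interquartile range as a covariate (-0.43, adjusted p = 0.160). None of the 5 lymphatic endothelium markers measured was called (log2 summed signal 9.14 to 9.44 in PR+/-, 8.94 to 9.38 in PRKO), while all 7 smooth muscle markers fell, and the part of either in the Itga9 result was not tested.

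Itga4 encodes the alpha chain through which leukocytes grip VCAM1 on endothelium. PR+/- replicates 1 to 5 read 4.94, 4.86, 5.01, 4.81 and 4.94 and PRKO replicates 1 to 5 read 5.04, 5.16, 5.50, 5.32 and 5.23. The PRKO arrays all lay above the PR+/- arrays, replicate 1 by a small margin and replicate 3, the array with ovarian transcripts, by the most. Itga4 had a mean of 4.91 (SD 0.0767, n = 5) in PR+/- and 5.25 (SD 0.172, n = 5) in PRKO, 1.26-fold higher, with a log2 difference of 0.34 ± 0.088 (limma, adjusted p = 0.0405). The call was lost under 14 of 22 alternatives, with differences from 0.25 to 0.41 over all of them. Among these were quantile normalization (limma, adjusted p = 0.0518) and cyclic loess (limma, adjusted p = 0.0687). The call was also lost on leaving out any of the PR+/- arrays (adjusted p 0.0583 to 0.104) or PRKO replicate 3, 4 or 5 (adjusted p 0.0873, 0.0683 and 0.0624). Without both arrays with ovarian transcripts the difference was 0.25 (adjusted p = 0.185). None of the 11 leukocyte markers measured was called, and their log2 summed signal was 9.21 to 9.42 in PR+/- and 9.37 to 9.61 in PRKO. A log2 difference above 0 was seen in 9 of the 11, against 56.1% of all genes. The part of leukocyte RNA in the Itga4 result was not tested. Of 7 other integrin genes of leukocytes, 0 were called, and all 7 had a log2 difference above 0 (median 0.15). Itgam belongs to this list and to the leukocyte markers. The 7 were dim, with mean signals at percentiles 18.4 (Itgax) to 45.3 (Itgam) of all genes, and Itga4 was at 41.3. The median over all genes, 0.03, became -0.01 without the dimmest 30% of probe sets and -0.04 without the dimmest 50%. The part of dim signal in these differences was not tested.

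The RefSeq promoters of this pair are shown because their genes went in opposite directions. Both are written 5′ to 3′ on the plus strand and hold the 250 bases before the start. Itga4 is at chr2:79255176-79255425 and Itga9 at chr9:118711442-118711691, and the start listed for Itga9 lies inside the gene rather than at its first base. Neither holds AGAACA, so neither has capitals.
Itga4: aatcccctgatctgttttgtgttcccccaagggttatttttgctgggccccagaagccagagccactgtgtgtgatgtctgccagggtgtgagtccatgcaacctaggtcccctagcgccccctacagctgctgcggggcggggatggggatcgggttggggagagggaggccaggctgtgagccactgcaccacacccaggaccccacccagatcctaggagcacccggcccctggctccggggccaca
Itga9: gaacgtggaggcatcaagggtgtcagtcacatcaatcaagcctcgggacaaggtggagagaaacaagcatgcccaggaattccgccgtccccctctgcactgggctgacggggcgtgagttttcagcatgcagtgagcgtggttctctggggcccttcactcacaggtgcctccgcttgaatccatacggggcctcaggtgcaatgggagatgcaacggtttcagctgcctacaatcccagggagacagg
Cerkl overlaps Itga4 in the annotation, and its log2 difference was 0.01 (limma, adjusted p = 0.954).

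**Figure D2:**
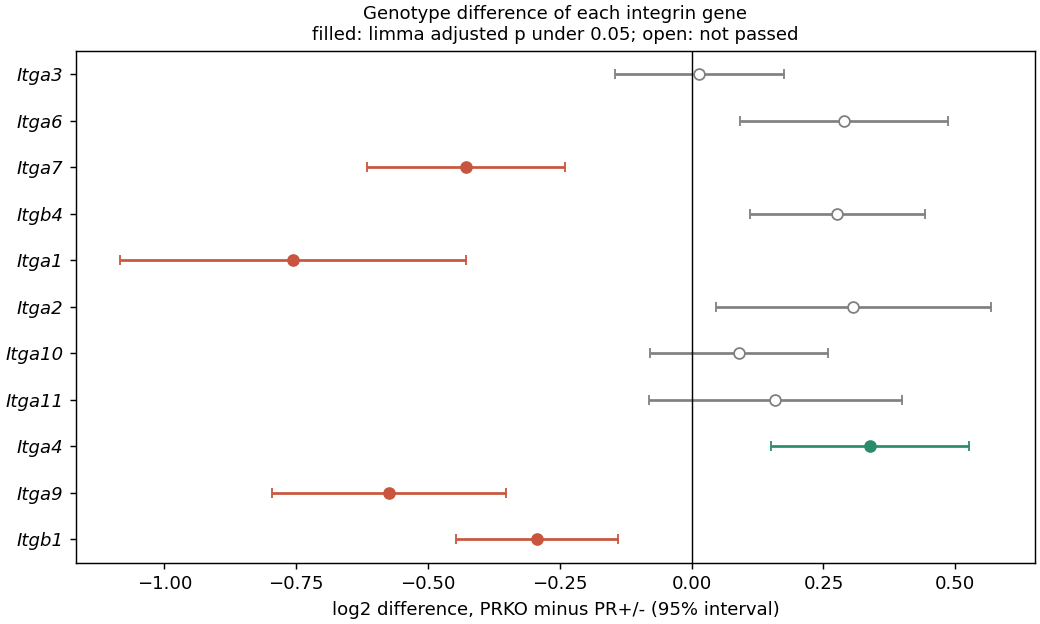
Log2 difference between PRKO and PR+/- for each integrin gene (horizontal axis) with its 95% interval, filled where the limma adjusted p was under 0.05. Itga1, Itga9 and Itga7 lie left of 0, Itga4 lies right of 0, and Itga6 and Itgb4 are open points of about the size of Itga4.

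A call in 1 gene and none in its neighbour does not show that they differ, so the difference between members was computed within each array for 11 pairs and tested between genotypes (two-sided exact permutation test, 252 arrangements, smallest possible p 0.00794). Of the 11 pairs, 7 passed with that smallest p (adjusted over the 11, 0.0125). Among laminin receptors, the genotype difference of Itga6 exceeded that of Itga7 by 0.72 ± 0.14 log2 units (95% interval 0.40 to 1.06), that of Itga3 exceeded that of Itga7 by 0.44 (0.18 to 0.69), and Itga3 minus Itga6 was -0.27 (-0.40 to -0.16). Among collagen receptors, Itga1 stood apart from each of the other members. Itga1 minus Itga2 was -1.06 ± 0.19 (-1.54 to -0.61), Itga1 minus Itga10 was -0.85 (-1.25 to -0.42) and Itga1 minus Itga11 was -0.92 (-1.42 to -0.54). Itga4 minus Itga9 was 0.91 ± 0.10 (0.67 to 1.12). Each of these 2 genes already separated the genotypes, in opposite directions, so this pair could only give the smallest p. Its pass is therefore no separate result.

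The other 3 collagen receptor pairs did not pass. Itga2 minus Itga10 was 0.22 (-0.11 to 0.54), Itga2 minus Itga11 was 0.15 (-0.18 to 0.47) and Itga10 minus Itga11 was -0.07 (-0.37 to 0.20). These intervals still allow differences of up to 0.54 on the log2 scale. Within an array, Itga1 was thus lower relative to each other collagen receptor in PRKO, and Itga7 lower relative to Itga3 and Itga6.

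**Figure D3:**
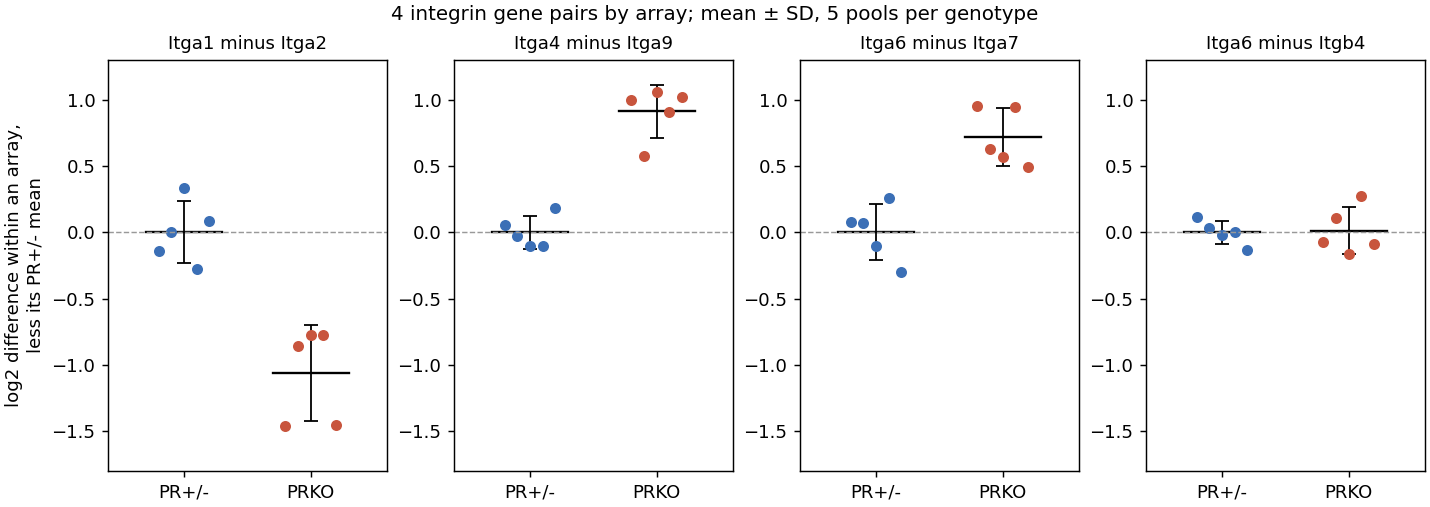
Difference in log2 signal between the members of 4 pairs on each array, less its PR+/- mean (vertical axis), with the mean and SD of 5 PR+/- arrays (blue) and 5 PRKO arrays (red). The genotypes separate for the pairs with an exact p of 0.00794 and overlap for Itga6 minus Itgb4, which had p = 0.897.

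All the alpha members pair with the beta 1 chain, alpha 4 can also pair with beta 7, and alpha 6 with beta 4. Itgb1, which encodes that shared partner, fell by 0.29 ± 0.071 on the log2 scale, 1.23-fold (limma, adjusted p = 0.0287). Its arrays read 10.49, 10.50, 10.62, 10.57 and 10.52 in PR+/- replicates 1 to 5 and 10.12, 10.17, 10.34, 10.33 and 10.28 in PRKO, with no overlap. The call was lost under 12 of 23 alternatives, among them quantile normalization (adjusted p = 0.0847), leaving out any PR+/- array (0.0583 to 0.0793) and leaving out PRKO replicate 1 or 2 (0.0534 and 0.0524). Itgb7, the leukocyte partner of alpha 4, had a log2 difference of 0.12 ± 0.075 and did not pass (limma, adjusted p = 0.377). The 8 alpha and beta genes of integrins that bind the tripeptide motif RGD form a separate class. Of these 8, 4 fell and 0 rose, beside 3.87% and 1.09% of all genes. Their median log2 difference was -0.23, with a wide range from -2.96 (Itga8) to 0.16 (Itga2b).

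The ligands, other receptors and adaptors were taken from 6 lists. Together with Itgb1 and Itgb7, 26 of 83 such genes fell and 2 rose, beside the 3.87% and 1.09% of all genes. With the interquartile range as a covariate, 13 fell and 0 rose, so that neither Lamb3 nor Vcam1 was called. Without the arrays with ovarian transcripts, 17 fell and 2 rose.

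Of 12 measured laminin chains and nidogens, 5 fell, 1 rose and 6 did not pass, with a median of -0.23. Lama4, the alpha chain of the laminin of endothelium and muscle, read 7.85 to 8.22 in PR+/- (median 8.00) and 7.00 to 7.41 in PRKO (median 7.19), 1.73-fold lower (limma, adjusted p = 1.99e-04). Lama1 fell by 0.91 ± 0.13 on the log2 scale (limma, adjusted p = 8.20e-04), with PRKO replicate 3 at 6.11 and the other PRKO arrays at 5.26 to 5.45. Lama2, the alpha chain of muscle laminin and a partner of alpha 7, fell by 0.54 ± 0.10 (limma, adjusted p = 0.00709). Nid1, which links laminin to collagen IV, fell by 0.68, and Lamc1, the gamma chain shared by most laminins, by 0.42. Lamb3 alone rose. It encodes a chain of the epithelial laminin that alpha 6 beta 4 binds, and read 5.10, 5.19, 5.21, 5.29 and 5.49 in PR+/- against 6.06, 5.65, 5.49, 5.90 and 5.78 in PRKO, 1.43-fold higher (limma, adjusted p = 0.0115). The lowest PRKO array, replicate 3, met the highest PR+/- array at about 5.49, and without both arrays with ovarian transcripts the log2 difference was 0.60 (limma, adjusted p = 0.0129). The Lamb3 call was lost under 3 of 23 alternatives, without moderation, without PRKO replicates 1 and 5, and with the interquartile range as a covariate.

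Of 16 collagen genes, 7 fell, 0 rose and 9 did not pass, with a median of -0.24. Of the 6 network-forming type IV collagens of basement membranes, the ligands alpha 1 prefers, 5 fell, and Col4a3 was level at 0.0065 (limma, adjusted p = 0.970). Col4a6 read 6.45 to 6.74 in PR+/- and 5.64 to 5.81 in PRKO, 1.84-fold lower (limma, adjusted p = 1.11e-05). Col4a5, Col4a1, Col4a4 and Col4a2 fell by 0.54, 0.47, 0.44 and 0.41 on the log2 scale. Of the fibrillar collagens, which form the fibres that alpha 2 and alpha 11 grip, Col5a2 fell by 0.35 (lost under 7 of 23 alternatives), while Col1a1 at -0.11 (limma, adjusted p = 0.425) and Col1a2 at -0.19 (limma, adjusted p = 0.136) did not pass. The remaining fall was that of Col6a3, a chain of the beaded-filament type VI collagen, at -0.33 (limma, adjusted p = 0.0396). Col4a3 and Col6a3 are named after their values were seen.

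Of 11 measured ligands of alpha 4 and alpha 9, 1 fell, 1 rose and 9 did not pass, with a median of -0.04. Vegfd, a growth factor of lymphatic vessels that alpha 9 beta 1 binds, read 8.76, 8.85, 8.80, 8.94 and 9.08 in PR+/- replicates 1 to 5 and 7.36, 7.73, 8.00, 7.81 and 7.41 in PRKO. No PRKO array came near the PR+/- range, and the fall was 2.34-fold (limma, adjusted p = 2.03e-05). Vcam1, the endothelial and stromal ligand of alpha 4 and alpha 9, read 4.62, 4.73, 4.70, 4.82 and 4.85 in PR+/- and 5.49, 5.15, 5.28, 5.06 and 5.16 in PRKO. It was 1.40-fold higher in PRKO (limma, adjusted p = 0.00513) with no overlap. Itga9 and its ligand Vegfd both fell, and Itga4 and its ligand Vcam1 both rose. Vcam1, also a ligand of alpha 9, went opposite to Itga9, and the other 9 ligands did not pass. Whether receptor and ligand genes moved together was not tested. Fn1, fibronectin, was level at 0.00 ± 0.080 (limma, adjusted p = 0.992), and Jam2, an endothelial ligand of alpha 4, differed by 0.02 (limma, adjusted p = 0.923).

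**Figure D4:**
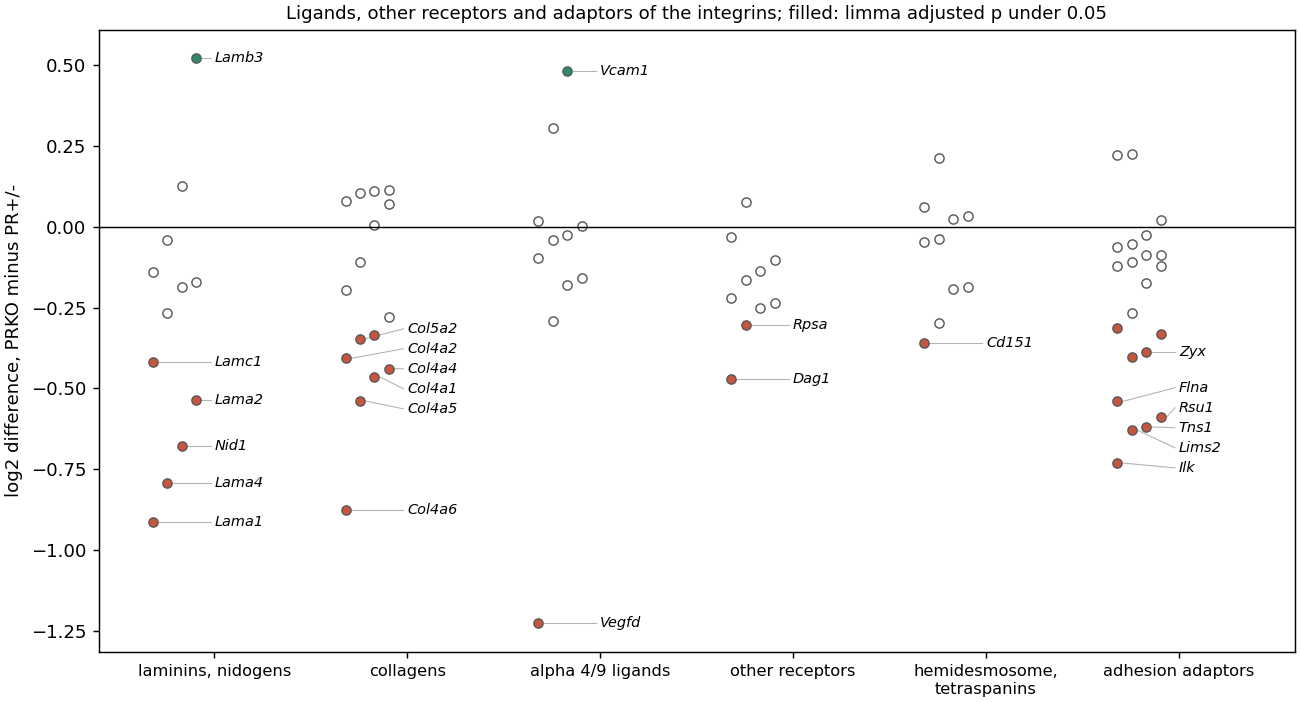
Log2 difference between PRKO and PR+/- (vertical axis) of each measured gene in 6 lists, with filled points where the limma adjusted p was under 0.05, red for falls and green for rises. Lamb3 and Vcam1 are the filled points above 0, and Vegfd lies lowest at -1.23.

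Of 10 other receptors for laminin and collagen, 2 fell and 8 did not pass (median -0.19). Dag1, dystroglycan, which joins laminin to the cytoskeleton of muscle and epithelium, fell by 0.47 ± 0.11 (limma, adjusted p = 0.0228), a call lost under 6 of 23 alternatives. Rpsa, known both as a laminin receptor and as a ribosomal protein, fell by 0.31 (limma, adjusted p = 0.0472), a call lost under 15 of 23 alternatives. Ddr1, the collagen receptor kinase of epithelia, had -0.22 (limma, adjusted p = 0.184). Of 10 hemidesmosome genes and tetraspanins, 1 fell and 9 did not pass (median -0.04). That gene was Cd151, the tetraspanin that associates with alpha 3, alpha 6 and alpha 7, at -0.36 ± 0.098 (limma, adjusted p = 0.0491), lost under 14 of 23 alternatives. Of 22 adaptors and activators, 9 fell, 0 rose and 13 did not pass (median -0.15). Ilk, the pseudokinase that binds beta tails, fell 1.66-fold from 10.17 to 10.23 in PR+/- to 9.10 to 9.68 in PRKO (limma, adjusted p = 3.69e-04). Its partners Lims2 and Rsu1 fell by 0.63 and 0.59, the actin linkers Flna and Tns1 by 0.54 and 0.62, and Zyx by 0.39. Tln1, the talin that activates integrins, had -0.11 (limma, adjusted p = 0.377). All 7 smooth muscle markers fell in the same arrays, and their part in these counts was not tested.

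Further marker lists stood as follows. Of 6 blood endothelium markers, Pecam1 and Emcn fell, with a log2 summed signal of 8.86 to 9.01 in PR+/- and 8.68 to 8.93 in PRKO. Of 6 fibroblast markers, Pdgfra fell (13.1 to 13.3 and 12.9 to 13.1). Of 5 mesothelium markers, Msln fell (10.5 to 10.6 and 10.2 to 10.5). Of 4 basal epithelium markers, Krt15 rose (6.36 to 6.60 and 6.57 to 6.82). The others, Krt5, Krt14 and Trp63, had log2 differences of 0.06, -0.05 and 0.03 and did not pass (limma, adjusted p 0.749, 0.758 and 0.875). Basal keratinocytes are a known site of alpha 6 beta 4. None of 3 Schwann cell markers was called (8.45 to 8.84 and 8.80 to 9.83). Their part in the members' values was not tested.

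The genes whose deviations from the genotype means followed each called member most closely over the 10 arrays are given as a description, with no test. Gpr155 (r = 0.98), Reck (0.96) and Dennd4a (0.96) followed Itga1. Both Gpr155 and Reck, the latter an inhibitor of matrix metalloproteinases, themselves fell in PRKO, and Dennd4a did not pass. Wnk3 (0.96), Rnmt (0.93) and Tcf4 (0.92) followed Itga4. Adcy5 (0.92), Minar2 (0.91) and Cts6 (0.90) followed Itga7, and Adcy5, an adenylyl cyclase, fell in PRKO. Cdk11b (0.96), Fam184a (0.95) and Tjap1 (0.95) followed Itga9. They were the highest of 19938 correlations over 10 arrays that share their processing. Among the members, Itga3 and Itga6 followed each other at 0.83 and Itga1 and Itga4 at 0.80, although the last pair differed in the direction of its genotype difference. Itga3 and Itga6 each also followed the interquartile range of the arrays, at 0.81 and 0.87.

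**Figure D5:**
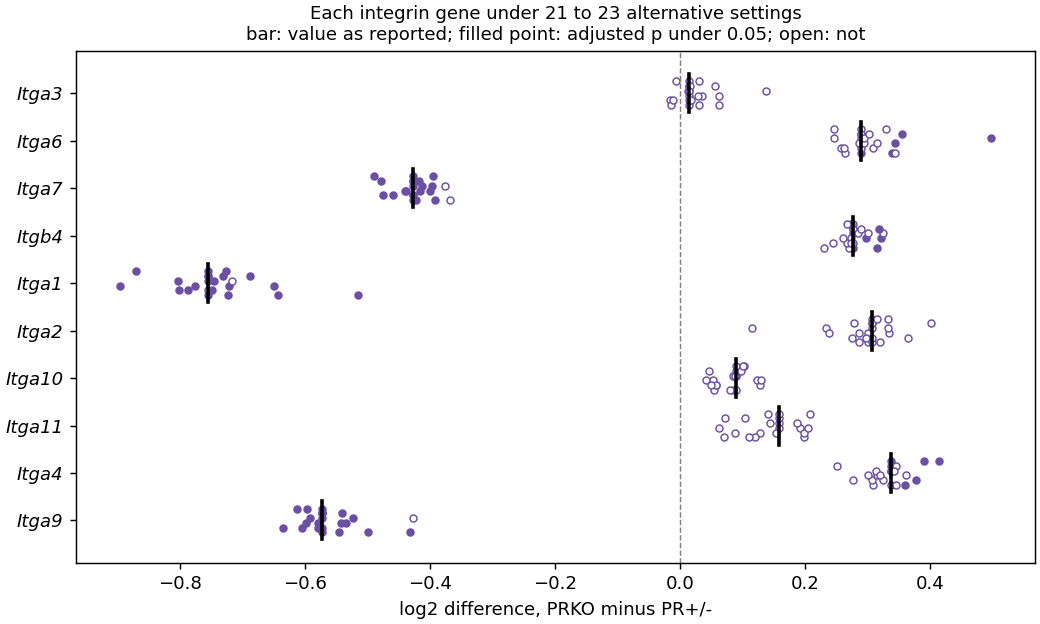
Log2 difference between PRKO and PR+/- (horizontal axis) of each integrin gene under 21 to 23 alternative settings, filled where the adjusted p was under 0.05, with a bar at the value reported. The points of Itga1, Itga7 and Itga9 stay left of 0 and those of Itga4, Itga6 and Itgb4 right of 0, and Itga3 straddles 0.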

How the data were processed

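RNA of pooled oviducts was hybridised to Affymetrix arrays after whole-transcript amplification and biotin labelling, per the labels' protocols. The values used are the authors' deposited log2 signals, 1 per probe set and array. The log2 scale was inferred from their range (1.09 to 13.6), and Partek is the software that the submitters' processing notes name. Its version, the background correction, normalization and genome build are not stated in the sources at hand. Of 35557 probe sets, 21789 had 1 symbol in the platform annotation, 1621 several and 12147 none there; only the first kind was used. No filter on dim signal was applied, and precision is limited by how many arrays there are.

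The genotype effect was fitted with limma 3.58.1 (R 4.3.3), with p-values adjusted by Benjamini-Hochberg over 19938 genes and a call at an adjusted p under 0.05; ± is the SE unless SD is stated. Pairs of members were tested by two-sided exact permutation of the 10 arrays, adjusted over 11 pairs, with intervals from the same permutations. Only the limma fit was tried on simulated data, drawn with equal spread in both genotypes, whereas most genes here varied more in PRKO. The permutation test of pairs was not tried in this way. All 10 members were named, the beta subunits that pair with them, Pgr, up to 6 called and up to 4 uncalled genes of each list (2 were used), every called marker and the 3 genes most like each called member, passing over predicted loci and olfactory or vomeronasal receptors. The overlapping and adjacent genes were chosen after their values were seen. Members and lists were chosen with earlier results of these data known. Replicate numbers were not used to pair arrays, because the correlations of same-numbered deviations were 0.104, 0.125, -0.0126, 0.129 and 0.159. Promoters were read from RefSeq (GRCm38.p6), and a planned comparison of protein sequences was not run. Some genes of the pathway lists were not analysed here. Alternatives were other normalizations, dim filters, variance models, weights, a covariate, a replicate block and arrays left out.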

Additional observations from a re-analysis of the deposited data

Results flagged for a closer look

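Of 96 groups of 5 arrays examined, 1 gene and genotype at a time, 4 held an array far from its group by Dixon's criterion, which chance meets in about 1 of 20 groups. Itga6 was 8.44 in PR+/- replicate 5, with the other PR+/- arrays at 8.63 to 8.69. Lama1 was 6.11 in PRKO replicate 3, with the others at 5.26 to 5.45. Jam2 was 9.38 in PRKO replicate 5, with the others at 9.61 to 9.70. Tns3, an adhesion adaptor, was 9.04 in PRKO replicate 5, with the others at 9.27 to 9.34.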

How the results depend on the processing

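Of the 3 members that fell, none was called with the interquartile range of each array as a covariate (count 0), a setting that also raised the median SE over all genes from 0.0940 to 0.118; the count was 2 without moderation, where Itga1 lost its call, 2 without PRKO replicates 1 and 5, where Itga7 did, and 3 in the other 20 alternatives, which include each array left out (3 to 3). The count of members that rose, 1, was 2 under quantile normalization and 2 under cyclic loess, where Itga6 and Itgb4 were called and Itga4 was not. It was 2 without the dimmest 30% of probe sets, namely Itga4 and Itgb4. Without the dimmest 50% it was 2, Itga6 and Itgb4, but that filter left only 7 members and removed Itga4. It was 3 with a variance trend and robust moderation, and 2 with array weights. It was 0 when centred on each array's median, without moderation and without the 2 arrays with ovarian transcripts, and 0 to 2 with 1 array left out. Of the pathway genes, 2 rose. This count was 1 without the dimmest 50%, a filter that removed Vcam1. It was also 1 without moderation and without PRKO replicates 1 and 5, where Lamb3 lost its call, and 0 with the covariate. Of the same genes 26 fell, against 13 with the covariate, 17 without the arrays with ovarian transcripts and 19 to 25 with 1 array left out. With the replicate number as a block (replicate block), 1 member rose, 3 fell, and 2 pathway genes rose and 26 fell; by sign flips over the 5 numbers, 0 of 11 pairs passed, against 7, because 32 flips allow no p under 0.0625 (adjusted p 0.0982). The pair count was 7 under every other alternative run on it. Reversals concerned differences near 0 that were not called: centred on each array's median, Itga3 was -0.016, Fn1 -0.030 and Jam2 -0.013; without the arrays with ovarian transcripts Fn1 was -0.040; Cd82 was 0.0036 under quantile normalization, 0.023 under cyclic loess and 0.013 with the covariate, and Tns3 0.026 with the covariate. With 1 array left out, Itga3 ranged from -0.014 to 0.056, Fn1 from -0.023 to 0.059, Jam2 from -0.037 to 0.071, Itga10 minus Itga11 from -0.13 to 0.029 and Itga6 minus Itgb4 from -0.053 to 0.056. The causes of these changes were not tested.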
